A study of Mus musculus with 10 samples.

Results

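Cytochrome P450 genes were examined in the heart transcriptomes of control and iSOD2 mice. Members were all genes of the count table whose symbol began with Cyp and a digit, which gave 105 of 24537 genes. RNA had been sequenced from the hearts of 10 mice aged 6 weeks, 5 per genotype. All mice carried the transactivator allele (Rosa26-rtTA2+/-) and were exposed in utero to doxycycline through the chow of their C57BL/6J dams until birth. The iSOD2 mice also carried 1 copy of a tetracycline-responsive short hairpin RNA against Sod2 (TRE-SOD2-shRNA+/-), which the controls lacked (TRE-SOD2-shRNA-/-). The transactivator is driven by the Rosa26 promoter, so knockdown of SOD2, which removes superoxide in the mitochondrial matrix, was not limited to the heart. There were 3 male and 2 female controls against 2 male and 3 female iSOD2 mice. Litter A, as it is called here, gave 2 mice of each genotype and litter B gave 3. Mice are named by genotype and number.

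Cytochrome P450 enzymes are heme proteins that insert an oxygen atom into lipids, steroids, vitamins and foreign compounds, drawing electrons from NADPH through the reductase Por in the endoplasmic reticulum or through the ferredoxin Fdx1 and its reductase Fdxr in mitochondria. Most enzymes of the CYP1, CYP2, CYP3 and CYP4 families that clear drugs are made chiefly in the liver, and several mouse liver forms are made mainly by 1 sex. The heart is known for epoxygenases and hydroxylases that act on arachidonic acid and for enzymes that act on retinoic acid and sterols.

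Libraries held 16448090.5 to 24263085.5 counts over genes. Values below are counts normalized for library size, and levels of different genes are compared only per kb of exon. Sod2 itself, the gene against which the hairpin was directed, was measured at 10573 ± 588 normalized counts in control and 10781 ± 449 in iSOD2 hearts (SD, n = 5 each). Its fold change was 0.03 on the log2 scale (SE 0.05, adjusted p = 0.806 with DESeq2). Summed over 9 markers of ventricular cardiomyocytes, the libraries held 1644355 to 2021343 normalized counts, so the labelled tissue was borne out by its own markers.

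The libraries also held RNA of hepatocyte genes, and its amount differed widely between mice. Alb, which encodes serum albumin and is made by hepatocytes, had 47.9 normalized counts in control 1, 1607 in control 2, 6699 in control 3, 3932 in control 4 and 3926 in control 6. In the iSOD2 mice it had 7293 in iSOD2 5, 3131.5 in iSOD2 7, 8766 in iSOD2 8, 6275 in iSOD2 9 and 14601 in iSOD2 10. Control 1 therefore stood far below the other 9 libraries, and the genotypes overlapped. The mean log2 level was higher in iSOD2 mice by 2.23 (exact permutation test over all arrangements, two-sided p = 0.0714, n = 5 each). Permuted within litter, exact p was 0.0333, and without control 1 the difference was 0.988 (exact p = 0.119). The mean level was also higher in females than males by 2.09 (exact p = 0.103), and higher in litter B than A by 2.40 (exact p = 0.0524 over 210 arrangements). The other 14 hepatocyte markers were all detected, with a summed level, Alb left out, of 221 to 4214 in controls and 2571.5 to 7076 in iSOD2 mice, and each followed Alb at a Pearson correlation of at least 0.8. The source of this RNA was not tested. In bulk libraries fewer cells of a type and less RNA per cell cannot be told apart.

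Members were then separated by whether they followed Alb over the 10 libraries. Of the 105 members, 77 reached the 10 counts in total required for testing, and 28 did not, 8 of them without any count. The 65 members whose normalized counts averaged 5 or more were classed by the Pearson correlation (r) of their log2 level with that of Alb. At r of at least 0.8, 26 members followed Alb, 11 lay between 0.5 and 0.8, and 28 did not follow it. The remaining 40 members were too low to be classed. The last gene inside the first class was Cyp4f14 (r = 0.853) and the first outside it Cyp2a4 (r = 0.791), and Cyp17a1 (r = 0.526) and Cyp3a41b (r = 0.496) bounded the second. These correlations describe the 10 libraries and are not tests. They rest in part on control 1. Without this library 18 of the 26 followed Alb, and without the libraries farthest from the median of Alb, controls 1 and 2, the 26 had a median r of 0.794, with 24 at 0.5 or more and the other two, Cyp3a11 and Cyp3a59, at 0.495 and 0.194.

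The classes were then counted by known role. The symbol rule also took in Cyp4x1os, which lies opposite Cyp4x1, and genes whose symbols mark pseudogenes. These included Cyp4b1-ps2, Cyp4f41-ps, Cyp2c53-ps and Cyp2d37-ps. They were counted under the role of their symbol, and none of those named here was classed. Of the 27 genes grouped as other CYP2 enzymes 7 followed Alb, 4 lay between, 8 did not follow it and 8 were not classed. Of the 16 CYP2C genes 9 followed Alb, 1 lay between, 6 were not classed and 0 fell in the class that did not follow. Of the 7 sterol and bile acid genes, 6 did not follow Alb and 1, Cyp7a1, did. Of the 23 CYP4 genes, of a family known for fatty acid hydroxylases, 4 followed Alb, 2 lay between, 5 did not follow it and 12 were not classed. Of the 9 CYP3A genes 3 followed, 2 lay between and 2 did not follow. Of the 12 retinoic acid, vitamin D and steroid hormone enzymes 8 were too low to be classed, and 0 of the other 4 followed Alb.

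**Figure D1:**
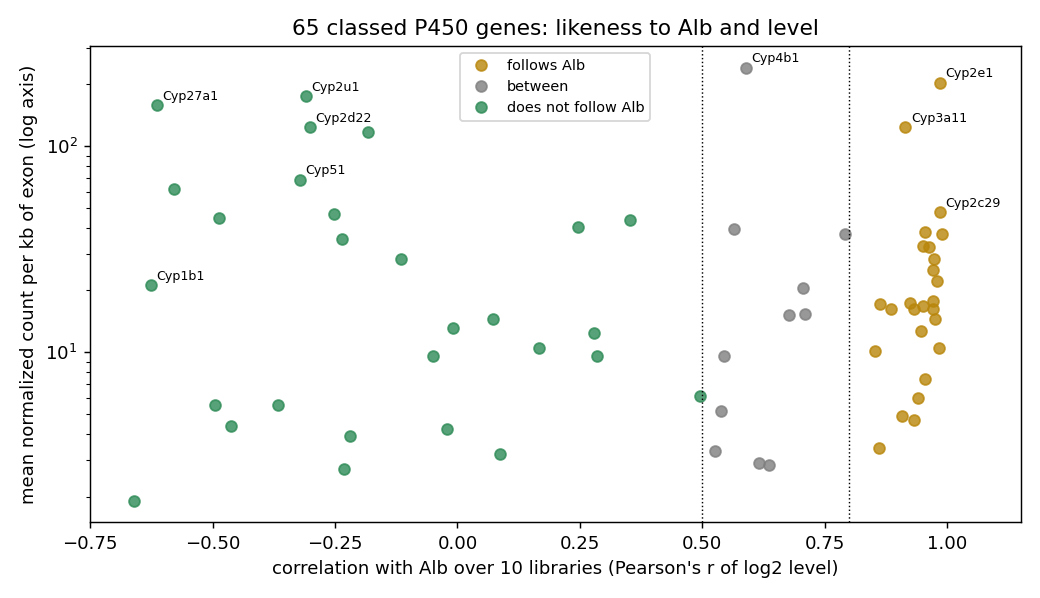
Each point is 1 of the 65 classed P450 genes, with its correlation with Alb over the 10 libraries on the x axis and its mean normalized count per kb of exon on a log y axis. Dotted lines mark r of 0.5 and 0.8. The followers crowd at 0.853 to 0.99, and the highest levels per kb are found in all 3 classes, with Cyp4b1 at 240.5, Cyp2e1 at 203 and Cyp2u1 at 175.

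Several of the 26 genes that followed Alb encode well known drug- and fatty acid-oxidizing enzymes of the liver. Cyp2e1, which oxidizes ethanol and small solvents, was the highest of them at 203 counts per kb. It had 5.43 normalized counts in control 1, 145 in control 2, 268 in control 3, 259 in control 4 and 210.0 in control 6, against 565 in iSOD2 5, 216 in iSOD2 7, 660.5 in iSOD2 8, 505 in iSOD2 9 and 675 in iSOD2 10. Control 1 was lowest by far, 4 iSOD2 mice lay above all controls, and iSOD2 7 lay among the controls. Cyp3a11, the chief drug-oxidizing CYP3A enzyme of mouse liver, stood at 123 per kb and had 5.43 counts in control 1 and 599 in control 3, its lowest and highest values. Cyp2c29, an arachidonic acid epoxygenase, stood at 47.9 per kb and ran from 0.904 counts in control 1 to 162 in iSOD2 10. Cyp2f2, Cyp2a5 (a coumarin hydroxylase), Cyp2d26, Cyp2c50 and Cyp2d10 followed at 28.4 to 38.3 per kb. Cyp4a14, a fatty acid hydroxylase, ran from 0 counts in control 1 to 109 in iSOD2 8, and Cyp2j5, an epoxygenase, from 0.904 in control 1 to 81.1 in iSOD2 10. Cyp1a2, which oxidizes caffeine, had 0 counts in control 1 and 23.7 to 74.0 elsewhere. Cyp7a1, the rate-limiting enzyme of bile acid synthesis, had 0 counts in control 1 and 2.98 to 66.9 elsewhere.

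Every one of the 26 had its lowest level in control 1, where 14 were at 0 and the highest reached 5.43 counts. At the depth of these libraries a level of 0 does not show absence. Their summed level was 27.1 normalized counts in control 1 and 602 to 2713 in the others. This was 0.805% of all P450 counts in control 1, 15.3% in control 2 and 22.1% to 40.2% in the other 8 libraries. How low the followers lay in control 1, where Alb was lowest, and how steady their ratio to Alb was both restate the rule that made the classes. They are given as descriptions. Over the 9 libraries without control 1, the coefficient of variation of the followers had a median of 54.7% for counts and 35.2% for the ratio, and that of the 28 genes that did not follow Alb 24.9% and 80.2%. Cyp2e1 had 40.0 to 90.3 counts per 1000 Alb counts in the 9 libraries and 113 in control 1.

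**Figure D2:**
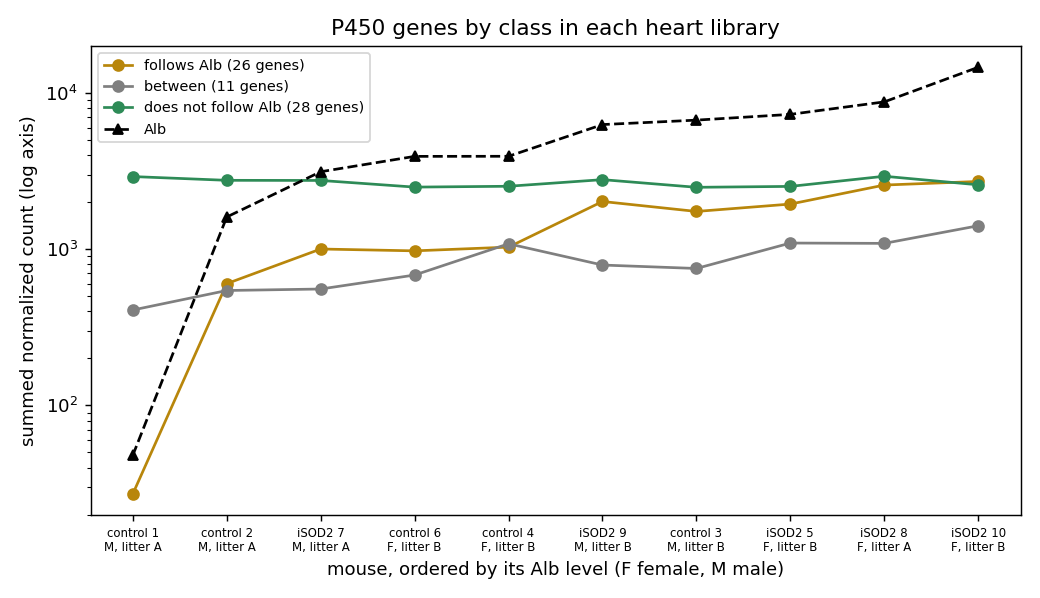
Summed normalized counts of the 3 classes and of Alb on a log axis, in the 10 mice ordered by Alb, with sex and litter beneath each mouse. The summed level of the 26 followers climbs from 27.1 in control 1 to 2713 in iSOD2 10, and that of the 28 genes that do not follow Alb stays between 2489 and 2929.

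Promoters of the followers are shown because members of this class moved together across the libraries. RefSeq promoter windows on GRCm38.p6, from 250 bases before to 50 after the gene start, were found for 76 of the 105 members. The sequence CAAAGTCCA, a form of the site bound by the hepatocyte nuclear factor HNF4, was searched on both strands. It occurred in 5 of 20 followers, 2 of 10 genes between, 2 of 23 that did not follow Alb and 2 of 23 not classed, against 0.477% of the promoters of all 27025 genes in the reference. The TATA box letters TATAAA, on either strand, occurred in 12 of 20 followers, 7 of 10 between and 5 of 23 that did not follow, against 14.2% of all. GTTAATNAT, a form of the HNF1 site, was found in none of the 20 followers and in 0.836% of all. Neighbouring CYP2C and CYP3A genes are duplicates of each other, so their promoters are not independent. A match of letters is a description and not a site in use. The 150 bases before the start follow for 3 followers with the HNF4 letters, for the female-predominant genes Cyp2c69 and Cyp3a41a, and for Cyp2e1, which had only the TATA letters. Bases in capitals match CAAAGTCCA or TATAAA on either strand. They lie in GRCm38.p6, Cyp3a11 at chr5:145879855-145880004 on the minus strand, Cyp2c70 at chr19:40187287-40187436 on the minus strand, Cyp2c40 at chr19:39812815-39812964 on the minus strand, Cyp2c69 at chr19:39886770-39886919 on the minus strand, Cyp3a41a at chr5:145720137-145720286 on the minus strand and Cyp2e1 at chr7:140763669-140763818 on the plus strand.
Cyp3a11: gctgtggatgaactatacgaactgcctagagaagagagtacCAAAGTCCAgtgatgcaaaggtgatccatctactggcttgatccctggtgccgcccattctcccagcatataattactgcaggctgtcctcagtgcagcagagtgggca
Cyp2c70: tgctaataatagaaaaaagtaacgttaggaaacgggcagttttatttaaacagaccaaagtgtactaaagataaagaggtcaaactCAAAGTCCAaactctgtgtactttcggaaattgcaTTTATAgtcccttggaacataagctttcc
Cyp2c40: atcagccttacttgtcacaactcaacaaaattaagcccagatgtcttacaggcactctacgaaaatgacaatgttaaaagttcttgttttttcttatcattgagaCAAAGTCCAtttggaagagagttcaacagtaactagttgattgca
Cyp2c69: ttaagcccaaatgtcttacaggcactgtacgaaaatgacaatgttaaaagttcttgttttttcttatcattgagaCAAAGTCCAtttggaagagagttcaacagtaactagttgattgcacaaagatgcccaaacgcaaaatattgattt
Cyp3a41a: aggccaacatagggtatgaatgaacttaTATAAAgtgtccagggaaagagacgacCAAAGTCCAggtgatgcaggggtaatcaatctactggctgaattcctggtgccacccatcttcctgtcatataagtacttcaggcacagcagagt
Cyp2e1: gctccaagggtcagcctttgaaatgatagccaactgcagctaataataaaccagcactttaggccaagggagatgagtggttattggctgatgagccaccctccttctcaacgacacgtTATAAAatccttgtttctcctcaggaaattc

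The HNF4 letters began 109 bases before the start in Cyp3a11, 64 in Cyp2c70, 45 in Cyp2c40, 75 in Cyp2c69 and 95 in Cyp3a41a. The TATA letters began 31 bases before the start in Cyp2e1, 29 in Cyp2c70 and 122 in Cyp3a41a. Outside the printed bases, they began 234 before the start in Cyp3a11, and 40 and 10 after it in Cyp2c40 and Cyp2c69. The counts of TATA letters above took any position in the window.

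The 28 genes that did not follow Alb included most P450 genes with a steady level in these hearts. Cyp2u1, which hydroxylates arachidonic acid and other long fatty acids, was the highest per kb among them at 175. It had 430.5, 420, 428, 398.5 and 408 normalized counts in controls 1, 2, 3, 4 and 6, and 378, 367, 448, 413 and 375 in iSOD2 mice 5, 7, 8, 9 and 10. The highest value was 1.22 times the lowest and the genotypes overlapped. Cyp27a1, the mitochondrial sterol 27-hydroxylase, stood at 158 per kb with 254 to 379 counts. Cyp2d22 stood at 123 per kb with 275 to 397 counts. Cyp20a1, an enzyme without a settled substrate, stood at 117 per kb with 223 to 285 counts. Cyp51, the lanosterol demethylase of cholesterol synthesis, stood at 68.6 per kb with 272 to 359 counts. The epoxygenases Cyp2j6 and Cyp2j9, which act on arachidonic acid, stood at 47.1 and 35.6 per kb, with 134 to 193 and 50.8 to 79.6 counts. In control 1, where the followers nearly vanished, each of these lay within or above the range of the other libraries.

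Other members with a known role were also detected. Cyp4f13 and Cyp4f16, which hydroxylate fatty acids and eicosanoids, stood at 61.95 and 45.0 per kb. Cyp39a1, an oxysterol hydroxylase, and Cyp4v3 stood at 43.9 and 40.5. Cyp1b1, which oxidizes estrogens and aromatic hydrocarbons, stood at 21.2 and had 67.8 to 159 counts. Cyp1a1, the classical target of the aryl hydrocarbon receptor, had a mean of 11.1 counts, Cyp2r1, the vitamin D 25-hydroxylase, 17.1, and Cyp27b1, the enzyme that activates vitamin D, 4.39. Cyp8b1 and Cyp7b1, enzymes of bile acid and oxysterol metabolism, had 8.395 to 31.8 and 16.9 to 37.8 counts and did not follow Alb. The steroid enzymes were scarce. Cyp17a1, which makes androgen precursors and lay between the classes, had 1.19 to 14.6 counts, Cyp11a1, which cleaves the cholesterol side chain, had a mean of 1.57, and Cyp11b1 had no count in any library. Of the 6 adrenal cortex markers, Star and Mrap had 126 to 193 and 80.8 to 125 counts, Nr5a1, Akr1b7 and Hsd3b1 had means of 0.813, 1.18 and 2.31, and Mc2r was at 0.

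Of the 11 genes between the classes, 7 were higher in every female than in every male. Of all tested genes 1.82% did not overlap between the sexes, in either direction. Of the 7, Cyp2a22, Cyp2b9, Cyp2b13, Cyp2c69, Cyp3a41a and Cyp3a44 averaged 0.0978 to 4.01 counts in males. They reached the mean of 5 needed for classing only through the females. Their share of this class is therefore no separate evidence of a sex difference. Genes of this class outside the 7 included well expressed ones that were present in control 1. Cyp4b1, which hydroxylates short fatty acids and aromatic amines, had the highest level per kb of all P450 genes at 240.5, with 301 to 618 counts. A straight line of its counts on Alb counts met 0 Alb at 356 counts. Cyp26b1, which clears retinoic acid, had 68.8 counts in control 6, 92.7 in control 1 and 126 to 324.5 in the others. Cyp4a32 shared 46.8% of its sequence windows of 50 bases with other members and had a lowest level of 10.9 counts. The relatives of Cyp26b1, Cyp26c1 and Cyp26a1, had means of 8.60 and 0.812.

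**Figure D3:**
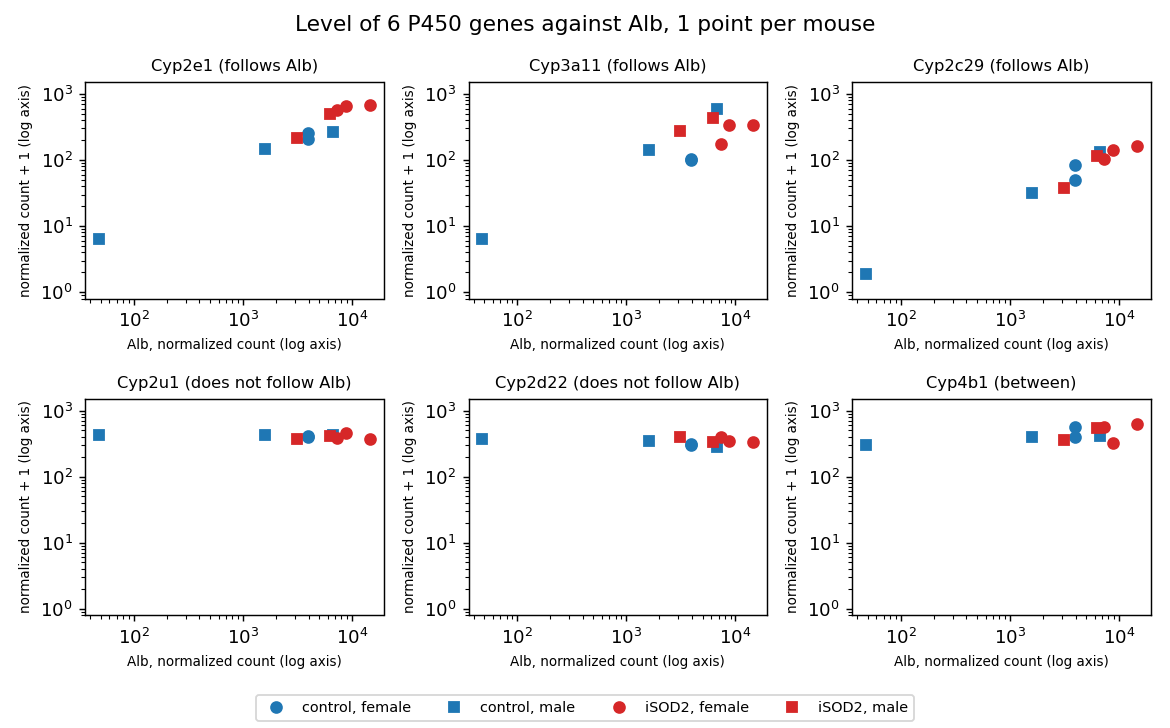
Normalized count plus 1 of 6 P450 genes against the normalized count of Alb, both on log axes, with 1 point per mouse, genotypes in colour and sexes by shape. Cyp2e1, Cyp3a11 and Cyp2c29 climb with Alb from control 1 on the left, while Cyp2u1 and Cyp2d22 lie flat and Cyp4b1 spans 301 to 618 counts.

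Genotypes were compared to ask which P450 genes differed in hearts that had gone through the early loss of SOD2. No member passed the test with DESeq2, at an adjusted p of at most 0.05 and an absolute log2 fold change above 0.25, against 2.96% of the 9479 genes with an adjusted p. DESeq2 gave an adjusted p to 10 of the 77 tested members, since its default filter set aside the lower ones. At an unadjusted p under 0.05 there were 9 of the 77 with DESeq2, where 13.2% of all genes had such a p, and 21 with edgeR. The share of all genes was taken with DESeq2 only. Of these members, 8 of the 9 and 18 of the 21 followed Alb. After adjustment edgeR called 0 members and 0 genes in all. The genotypes overlapped for all 77, against 3.77% of all tested genes without overlap.

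The differences were split by class. The 26 followers had fold changes of 0.57 to 1.58 on the log2 scale with a median of 1.31, all toward iSOD2, while the 28 genes that did not follow Alb had a median of 0.04 and all tested genes -0.0018. This split repeats the higher Alb of the iSOD2 libraries and is no separate evidence of a genotype effect. Of the followers DESeq2 gave an adjusted p to Cyp2e1, at 1.56 on the log2 scale (SE 0.74, adjusted p = 0.202), and to Cyp3a11, at 0.72 (SE 0.85, adjusted p = 0.688). Cyp4f14, a leukotriene hydroxylase, had the smallest unadjusted p of the 26 at 1.42 (SE 0.41, unadjusted p = 0.000545), with no adjusted p, and its counts overlapped. Cyp2u1, Cyp2d22 and Cyp27a1 had log2 fold changes of -0.07 (SE 0.08, adjusted p = 0.636), 0.15 (SE 0.10, adjusted p = 0.407) and 0.05 (SE 0.13, adjusted p = 0.875). Cyp2j6 and Cyp4b1 had 0.04 (SE 0.12, adjusted p = 0.895) and 0.22 (SE 0.19, adjusted p = 0.546). Calls appeared in some subsets. Among females alone 96 genes were called, 8 of them members (Cyp2a4, Cyp2a5, Cyp2a12, Cyp2d10, Cyp2e1, Cyp2f2, Cyp3a11 and Cyp3a25). Their Alb did not overlap between genotypes, with 3926 and 3932 in controls and 7293 to 14601 in iSOD2 mice. Litter B alone gave 65 called genes, of which 3 were members (Cyp2a12, Cyp2d10 and Cyp2e1). Litter A alone and males alone gave 121 and 151 called genes, of which 0 were members. Cyp2e1 was called without control 1, among 186 genes in all. Cyp3a25 and Cyp4f14 were called without control 3, among 185.

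**Figure D4:**
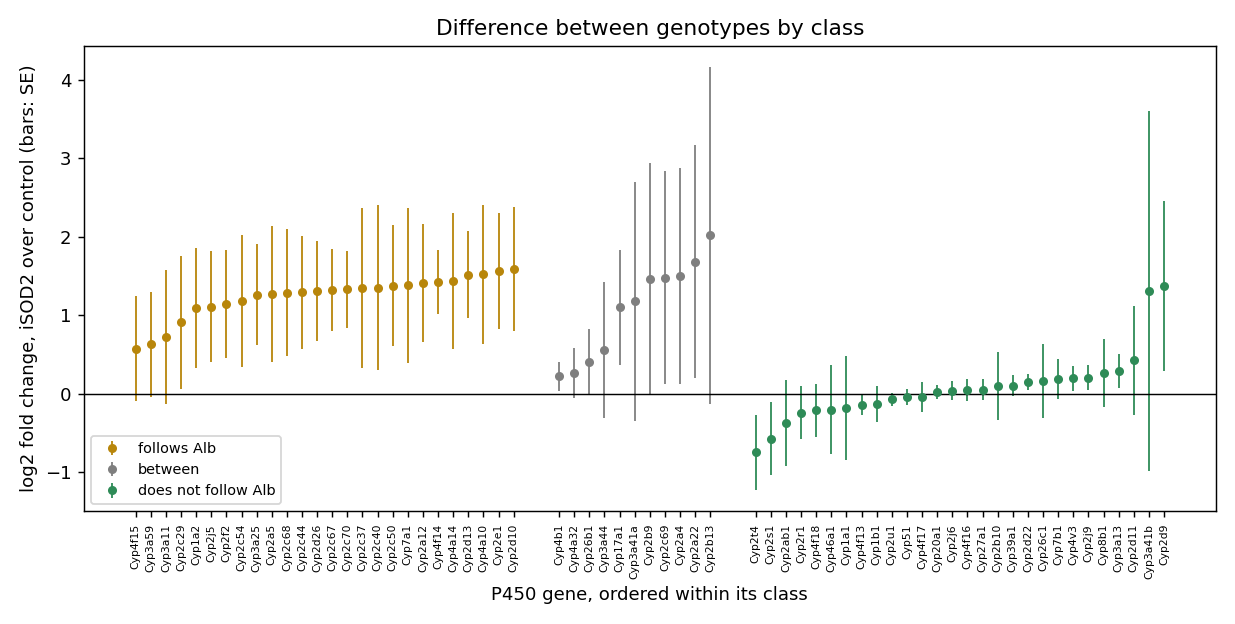
Log2 fold change of iSOD2 over control for each classed P450 gene, ordered within its class, with bars of 1 SE. The 26 followers sit at 0.57 to 1.58, the genes that do not follow Alb are spread around 0.04, and no gene passed the adjusted test.

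The comparison was repeated at equal Alb, with the log2 level of Alb and sex as covariates. Again 0 members were called by DESeq2, against 2.06% of all genes with an adjusted p, and 0 by edgeR. An unadjusted p under 0.05 was found for 5 members with DESeq2, where 10.7% of all genes had such a p, and for 8 with edgeR. The medians moved to 0.15 for the followers, 0.02 for the genes between and 0.11 for those that did not follow Alb. With the mean of the hepatocyte markers in place of Alb, the followers had a median of -0.18. Those that did not follow Alb then had 0.09, and 0 members were called, against 196 genes in all. At equal Alb Cyp2e1 had a smaller difference of 0.49 on the log2 scale (SE 0.18, adjusted p = 0.127). It was called without control 1, control 2 or iSOD2 10, among 366, 217 and 223 genes in all. Per 1000 Alb counts it stood at 40.0 to 113 in controls and 46.25 to 80.45 in iSOD2 mice, and the genotypes overlapped. Cyp2d22 had 0.28 (SE 0.11, adjusted p = 0.159) and Cyp27a1 0.25 (SE 0.12, adjusted p = 0.26). Whether the genotype effect differed between the sexes was tested as an interaction. It passed for 0 members with either tool and for 0.0% of all genes. With DESeq2 1 member, Cyp1a1, had an unadjusted p under 0.05 (log2 difference 2.71, SE 1.37, unadjusted p = 0.048, adjusted p = 1.0), as did 1.18% of all genes.

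Some P450 genes differed between the sexes. Between females and males, with genotype in the model, 9 members were called by DESeq2, against 0.483% of all genes. edgeR called 6 of these, without Cyp2a22, Cyp4a10 and Cyp2d9. Without control 3 DESeq2 called 18 members and 147 genes in all, against 9 and 79 with all 10 mice. Of the 9, 8 were higher in females, against 0.22% of all genes, and 1 was lower, against 0.263%. The sexes did not overlap for 10 members, all higher in females, against 1.82% of all tested genes. These were Cyp2a4, Cyp2a22, Cyp2b9, Cyp2b13, Cyp2c37, Cyp2c69, Cyp3a41a, Cyp3a41b, Cyp3a44 and Cyp4a10. Cyp2a4 and Cyp3a44 were those that missed the adjusted test. Several of the 10 are textbook female-predominant genes of mouse liver, and the list of such genes had been typed with results of these data known. The 7 kidney tubule markers summed to 35.7 to 494 counts in females and 7.25 to 55.2 in males, and their part in these differences was not tested.

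Since females also had more Alb, sex was compared at equal Alb. Then 9 members were called by DESeq2 and the same 9 by edgeR, against 0.293% of all genes. In females 7 were higher, against 0.104%, and 2 were lower, against 0.19%. Cyp2a22 (3.62, SE 1.14, adjusted p = 0.217) and Cyp4a10 (1.18, SE 0.36, adjusted p = 0.184) were no longer called, and Cyp2a4 and Cyp3a11 now were. Leaving out any 1 library also gave 9 calls, though without control 3 Cyp2c37 was replaced by Cyp4a12a. With the mean of the hepatocyte markers in place of Alb, 11 members were called, among 60 genes in all. These were the 9 and, in addition, Cyp2c40 and Cyp4a10. Cyp2a4, a steroid 15-alpha-hydroxylase, had 74.6, 50.6, 109, 116 and 231 counts in females (controls 4 and 6, then iSOD2 5, 8 and 10) and 0, 2.98, 38.9, 1.04 and 15.2 in males (controls 1, 2 and 3, then iSOD2 7 and 9). Its log2 difference at equal Alb was 2.29 (SE 0.34, adjusted p = 3.8e-08). Its close relative Cyp2a5 had 46.04 to 161 counts in females and 0 to 60.2 in males, and a difference of 0.40 (SE 0.24, adjusted p = 1.0). The female level of Cyp2a4 exceeded every male level, while Cyp2a5 overlapped.

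Cyp2c69 had 54.3, 30.9, 58.7, 84.2 and 114.5 counts in the same females and 0.452, 1.19, 10.03, 1.04 and 7.34 in the same males, with a log2 difference at equal Alb of 3.09 (SE 0.45, adjusted p = 8.92e-09). Cyp2b9, of the family of phenobarbital-responsive genes, had 29.6 to 87.7 counts in females and 0 to 10.03 in males (3.22, SE 0.51, adjusted p = 2.13e-07). Cyp3a41a had 38.4 to 103 and 0 to 5.64 (3.95, SE 0.59, adjusted p = 3.45e-08). Cyp2c37, an arachidonic acid hydroxylase that followed Alb, had 31.6 to 77.2 and 0 to 14.4 (1.83, SE 0.39, adjusted p = 0.0014). Cyp2b13 had 7.08 to 32.1 counts in females, 0 in 4 males and 0.489 in iSOD2 9. Cyp3a41b had 15.7 to 39.2 in females, 0 in 4 males and 0.597 in control 2. Both were called at equal Alb (adjusted p = 0.000325 and 1.21e-05), and no fold is given because the male levels rest on single counts.

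The opposite direction was rarer. Cyp2d9, a testosterone 16-alpha-hydroxylase known as male-predominant in liver, had 1.36, 36.4, 11.3, 38.3 and 92.0 counts in males and 4.94, 3.035, 3.38, 9.26 and 4.24 in females. Control 1, which had hardly any Alb, lay below all females, and control 3 lay close to iSOD2 8. The log2 difference at equal Alb was -3.575 (SE 0.59, adjusted p = 1.59e-06). Cyp3a11 was called lower in females at equal Alb alone, by -1.54 (SE 0.17, adjusted p = 1.01e-15). Per 1000 Alb counts it stood at 23.5 to 38.7 in females and 68.4 to 113 in males, without overlap, whereas its counts overlapped between the sexes.

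The log2 ratio to Alb, with 1 added to both counts, was also compared between 5 females and 5 males, for the 10 of 13 genes of the female- and male-predominant lists with a mean count of at least 5 (exact permutation tests over all arrangements, two-sided, unadjusted, smallest possible p = 0.00794). The other 3, Cyp3a16, Cyp4a12a and Cyp4a12b, were lower, with highest levels of 6.13, 12.2 and 9.78 counts. The genes had been listed with results of these data known, and 7 of the 10 were among those without overlap above, so the p values are no independent support. The ratio was higher in females by 2.13 for Cyp2a4, 2.24 for Cyp2b9 and 2.06 for Cyp2c69 (exact p = 0.0476 each) and fell by 3.98 in females for Cyp2d9 (exact p = 0.00794). It differed by 2.24 for Cyp3a41a (exact p = 0.0635), 2.41 for Cyp3a41b (exact p = 0.119) and 1.98 for Cyp2b13 (exact p = 0.159). In control 1 the added count and the low Alb set these ratios. Leaving out any other mouse raised the exact p of Cyp2b9 and Cyp2c69 to between 0.0794 and 0.143, and leaving out any of 6 raised that of Cyp2a4 past 0.05. Without control 1, Cyp2a4, Cyp2b9, Cyp2b13, Cyp2c69, Cyp3a41a and Cyp3a41b differed by 2.77, 3.16, 3.21, 2.99, 3.12 and 3.63. For Cyp3a44, Cyp4a14 and Cyp7b1 the ratio differed by 0.12, 0.06 and -2.02 with exact p = 0.889, 0.905 and 0.151. The 10 non-overlapping genes were by the same token higher in females within each litter, though litter A held a single female, iSOD2 8.

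**Figure D5:**
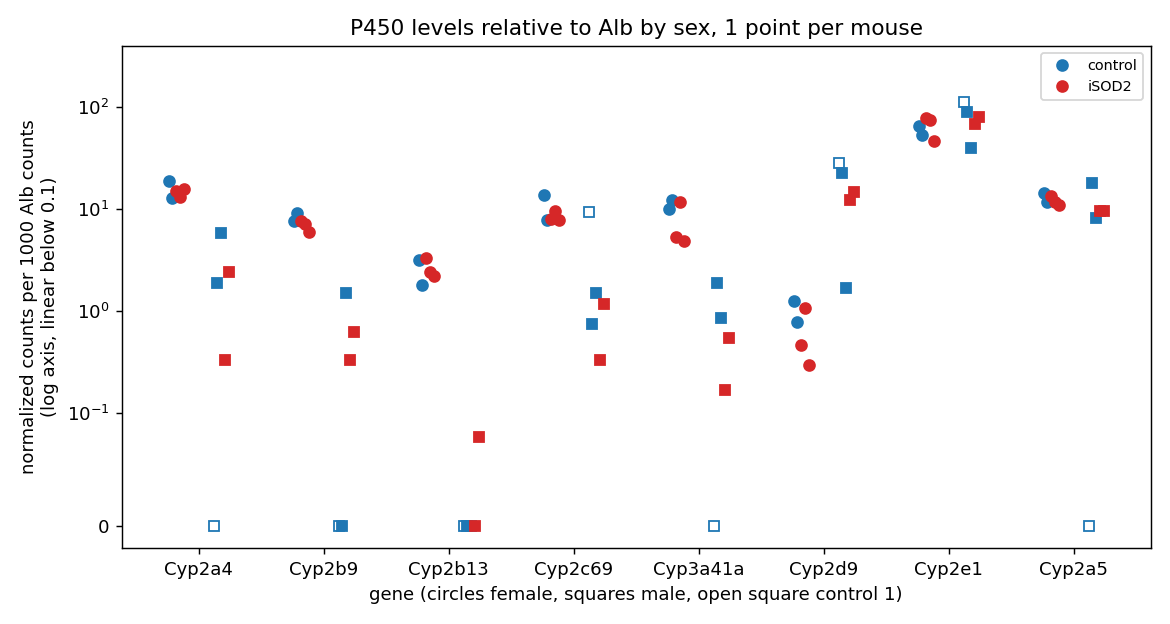
Normalized counts per 1000 Alb counts for 8 P450 genes, with 1 point per mouse on an axis that is logarithmic above 0.1 and linear below it. Cyp2a4, Cyp2b9, Cyp2b13 and Cyp3a41a are higher in all 5 females than in all males, Cyp2c69 as well except that control 1 (open square, 9.43) lies among the females, Cyp2d9 is lower in all females, and Cyp2e1 and Cyp2a5 overlap.

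Several of these genes are recent duplicates, so that reads could be shared between them. In 50-base windows of the matched GENCODE transcripts, 93.7% of Cyp3a41a occurred in Cyp3a41b and 93.5% of Cyp3a41b in Cyp3a41a, and their separate counts are uncertain. Cyp2c40 shared 72.1% of its windows with other members, Cyp2c69 54.8%, Cyp2a4 36.1%, Cyp2a5 31.0% and Cyp2d9 27.9%. Cyp2b9 shared 10.8% and Cyp2e1 0.0%. Of the 63 classed members with a transcript, 26 shared at least 10% of their windows. Counting stated no strand option, and exons of Cyp2u1 overlapped 4930534D22Rik on the opposite strand over 545 of 4607 exon bases, and those of Cyp51 overlapped Akap9 over 166 of 3931, so reads of these pairs cannot be told apart there.

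Litter was compared as a label that each genotype shared, with genotype in the model. Between litter B and litter A 3 of the 64 members with an adjusted p were called, against 3.5% of all genes, and edgeR called the same 3. Cyp4b1 had 301, 390, 362 and 319 counts in litter A (controls 1 and 2, iSOD2 7 and 8) and 405, 566, 402, 570, 534 and 618 in litter B (controls 3, 4 and 6, iSOD2 5, 9 and 10). The litters did not overlap (0.59 on the log2 scale, SE 0.12, adjusted p = 0.000156). Cyp4b1 is also known from kidney and lung. The 7 kidney tubule markers summed to 494 in control 4, 343 in iSOD2 10 and 164 in iSOD2 5 and to 7.25 to 55.2 in the other libraries, with Kap, Umod and Slc34a1 at 0 in controls 1 and 2 and iSOD2 7. The 9 lung epithelial markers summed to 9.40 to 37.9 in controls and 9.29 to 19.8 in iSOD2 mice, and 8 of them had a mean under 5. Their part in the litter difference was not tested.

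Cyp1b1 was lower in litter B (log2 fold change -0.65, SE 0.16, adjusted p = 0.00324), with 109 to 159 counts in litter A and 67.8 to 108 in litter B, and was not called without control 1. Cyp7a1 was higher in litter B (2.56, SE 0.54, adjusted p = 0.0003), with 0, 2.98, 5.18 and 15.4 counts in litter A and 10.6 to 66.9 in litter B. At equal Alb, an alternative chosen after seeing the data, Cyp4b1 alone was still called by DESeq2 (0.57, SE 0.15, adjusted p = 0.037), against 0.837% of all genes, and edgeR called 0 members. Without iSOD2 8, 19 members were called between the litters. That mouse held the only high Alb level of litter A, at 8766 against 47.9 to 3131.5 in the rest of its litter.

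The genes that serve P450 enzymes were read from the genotype comparison. The list of 16 partner genes was made mainly of genes that supply electrons or heme or handle the products. It also held Hmox1, which breaks down heme, and Tbxas1 and Ptgis, which are P450 enzymes named outside the symbol rule. Of the 16 genes, 13 had an adjusted p and 3 were called, against 2.96% of all genes with an adjusted p. All 3 were higher in iSOD2 mice. The list was chosen with earlier results of these data known, so this share is no independent support. Cyb5a, cytochrome b5, which passes electrons to P450 enzymes, had 440, 397.5, 387, 477 and 395 counts in controls 1, 2, 3, 4 and 6 and 662, 522, 531, 492 and 567 in iSOD2 5, 7, 8, 9 and 10, without overlap (0.40 on the log2 scale, SE 0.10, adjusted p = 0.00231). Ephx1, the microsomal epoxide hydrolase, had 728.5 to 909 and 944 to 1135 counts (0.31, SE 0.07, adjusted p = 0.00334). Pgrmc1, a heme-binding partner of P450 enzymes, had 274.5 to 323.0 and 347 to 453 (0.36, SE 0.09, adjusted p = 0.00537). The correlation with Alb was 0.367 for Cyb5a, 0.221 for Ephx1 and 0.715 for Pgrmc1. Cyb5a and Ephx1 were also called at equal Alb (0.44 and 0.37, adjusted p = 0.00624 and 0.00104). edgeR called 0 of the 16, with adjusted p of 0.0745, 0.0768 and 0.0786 for these genes, and with the trend of each library with exon length removed DESeq2 called 0. Por, the reductase itself, was at 953 ± 61.2 counts in control and 1036 ± 140.4 in iSOD2 hearts (SD, n = 5 each). Alas2, the erythroid enzyme of heme synthesis, was at 912.5 ± 283.0 and 711.0 ± 84.2 and was not called.

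Of 21 regulators of P450 genes, 11 had an adjusted p and 0 were called by DESeq2. An unadjusted p under 0.05 was found for 3 with DESeq2, where 13.2% of all genes had such a p, and for 6 with edgeR. Here too the share of all genes was taken with DESeq2 only. Hnf4a, the hepatocyte nuclear factor, was at 36.6 ± 27.01 counts in control and 84.1 ± 27.2 in iSOD2 hearts (SD, n = 5 each). It had 2.71 counts in control 1 and a correlation with Alb of 0.971. Ahrr, the repressor of the aryl hydrocarbon receptor, had 78.4 ± 17.4 and 99.1 ± 29.7, and Nr1i3, the xenobiotic receptor CAR, 68.7 ± 6.93 and 82.5 ± 10.5.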

How the data were processed

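Each library came from the heart of 1 mouse, after ribosomal RNA had been removed from total RNA. Per the submitters' processing notes and the study's methods, reads were aligned to mm10 (GRCm38) with STAR and summed over exons with HOMER, with no strand option stated. The deposited values are estimated counts in steps of 0.5, not normalized by the authors, and another deposited unit is an exon length in base pairs. Counts were rounded, genes with fewer than 10 counts in total were left out, and DESeq2 1.42.0 (Wald test, median-of-ratios factors, Benjamini-Hochberg adjustment over all genes) was used in R 4.3.3, with edgeR 4.0.16 as an alternative. A gene was called at an adjusted p of at most 0.05 and an absolute log2 fold change above 0.25. The scripts were checked on simulated data. Precision is set by the spread between mice and, for scarce genes, by counting error.

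Named were all members called in any of the main fits, the 12 of highest mean count in each class, detected members of the sex-dependent lists and of the sterol, retinoid, vitamin D, steroid, CYP1, CYP2J and CYP20 roles, and, of the partner and regulator lists, called genes and the 3 largest fold changes with a mean of at least 50. Por, Cyp2a5 beside Cyp2a4, and genes named for a shared sequence or a subset were chosen after their values were seen. Members, lists and tests were chosen with earlier results of these data known. Alternatives tried were TMM scaling, other filters and covariates, exon length trends, single litters or sexes, Apoa1 or hepatocyte markers in place of Alb, and each mouse left out. Transcripts came from GENCODE and promoters from RefSeq.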

Additional observations from a re-analysis of the deposited data

Results flagged for a closer look

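For 10 values, 1 mouse lay far from the others of its genotype by Dixon's criterion. They came from 102 groups of 5 (51 named genes in each genotype), of which chance alone would give about 5.1. Cyp1a1 had 31.6 normalized counts in iSOD2 10 against 3.38 to 6.17 in the other iSOD2 mice. Cyp1a2 had 24.35 in iSOD2 7, the iSOD2 mouse with the least Alb, against 60.4 to 74.0. Cyp26b1 had 324.5 in iSOD2 8 against 169.9 to 201.0, and Cyp51 had 359 in the same mouse against 272 to 285. Cyp2d9 had 36.4 in control 2 against 1.36 to 11.3 in the other controls, and Cyp4a12a and Cyp4a12b had 9.55 and 5.97 in that mouse against 0 to 0.904 and 0 to 1.25. Cyp4a12a and Cyp4a12b share 48.9% and 49.4% of their windows of 50 bases. Cyp3a11 had 599 in control 3 against 5.43 to 138.5, and Cyp46a1, the brain cholesterol hydroxylase, 0.627 in control 3 against 6.78 to 8.395. Cyp2j6 had 189.0 in control 1 against 156 to 163.5. None of these was called between genotypes over all 10 mice, and Cyp3a11 was called among females alone.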

How the results depend on the processing

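Without 1 mouse at a time, called members numbered 0 to 2 for genotype, 0 to 1 for genotype at equal Alb, 8 to 18 for sex (18 without control 3), 9 for sex at equal Alb, 2 to 19 for litter (19 without iSOD2 8) and 3 to 4 for the partner genes, and 18 to 28 members followed Alb (18 without control 1). Of all genes, 166 to 488 were called in these fits for genotype and 12 to 366 for genotype at equal Alb. For sex 41 to 147 genes were called, for sex at equal Alb 40 to 77, and for litter 300 to 705. With all mice edgeR gave 6 members for sex, among 29 genes. Females alone gave 8 members between genotypes among 96 genes, and litter B alone 3 among 65. Litter with Alb as a covariate gave 1 among 111. Partner genes fell to 0 with edgeR and to 0 with the exon length trend removed. The Alb difference of 2.23 between genotypes had exact p = 0.0333 when permuted within litter and 0.05 within sex, and ran from 0.988 to 2.76 with exact p = 0.0238 to 0.198 without 1 mouse. The ratio differences between the sexes ran, without 1 mouse, from 1.90 to 3.16 for Cyp2b9, 1.43 to 3.21 for Cyp2b13, 1.77 to 3.12 for Cyp3a41a, 1.86 to 3.63 for Cyp3a41b, 1.525 to 2.77 for Cyp2a4, 1.61 to 2.99 for Cyp2c69, -0.66 to 1.10 for Cyp3a44, -0.25 to 0.40 for Cyp4a14, -4.69 to -3.51 for Cyp2d9 and -2.70 to -0.78 for Cyp7b1. The sign turned for Cyp3a44 and Cyp4a14. The largest exact p without 1 mouse was 0.127 for Cyp2b9, 0.0794 for Cyp2a4 and 0.143 for Cyp2c69. With Apoa1 in place of Alb the differences were 3.24 for Cyp2b9, 2.99 for Cyp2b13, 3.245 for Cyp3a41a and 3.41 for Cyp3a41b. They were 3.135 for Cyp2a4, 3.06 for Cyp2c69, 1.125 for Cyp3a44 and 1.07 for Cyp4a14. For the male-predominant Cyp2d9 and Cyp7b1 they were -2.97 and -1.01. A change of reference moves the log2 ratio of every gene by the same amount, so these are not separate results. The causes of the other changes were not tested. With Spearman's rho 25 members followed Alb, 21 of them shared with the 26. No paired analysis was possible because the genotypes share no replicate number in the labels, so litter entered as a covariate beside sex (0 members called between genotypes) or as strata. Depth limits the scarcest genes, and control 1 with its low Alb limits each ratio.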
